A study of Homo sapiens with 12 samples.

Results

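The genes described here encode integrins, laminins and collagens, the receptors and the matrix proteins through which epithelial cells hold on to their surroundings. Symbols in the deposited files were taken that begin with ITGA and a digit, E, V or X, or with ITGB, LAMA, LAMB or LAMC and a digit. Those with the form of a collagen chain name were also taken, and symbols that contain BP were left out. This gave 81 of 23228 genes. They comprised 23 integrin subunits (15 alpha and 8 beta), 13 laminin chains and 45 collagen chains. Of these, 53 had counts high enough to be tested (18 integrin, 10 laminin and 25 collagen genes). The symbol pattern does not take in the integrin alpha subunits ITGAL, ITGAM and ITGAD.

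RNA sequencing was carried out on 12 libraries of MDA-MB-468, a human triple-negative breast cancer cell line, engineered to make estrogen receptor beta (ERβ1, gene ESR2) when doxycycline is added. All cells were grown without phenol red, in DMEM with charcoal-stripped serum at 10% for 3 days and then at 5%. Induced E2 cells received doxycycline at 50 ng/mL for 48 h and then 17β-estradiol (E2) at 10 nM for 4 h, and induced vehicle cells received the same doxycycline and then 0.1% DMSO for 4 h. Uninduced E2 and uninduced vehicle cells received E2 or DMSO in the same way but no doxycycline. Each of the 4 groups had 3 libraries. A single engineered line was used, no source used here names the promoter that drives its transgene, and no group received doxycycline without carrying the ERβ1 construct. An effect of the drug and an effect of the receptor therefore cannot be told apart in the doxycycline comparisons. The labels do not say that replicates were separate cultures, and the p-values then reflect the variation among these libraries alone.

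Integrins are heterodimers of 1 alpha and 1 beta subunit that span the plasma membrane, bind matrix proteins outside the cell and connect through adaptor proteins to the actin or keratin cytoskeleton. Laminins are trimers of 1 alpha, 1 beta and 1 gamma chain and form, with the collagen IV network, the sheet of basement membrane under an epithelium. In breast epithelium the integrin of the subunits ITGA6 and ITGB4 sits in hemidesmosomes and binds a laminin that holds the chains LAMA3 and LAMB3.

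Promoters were looked up for the members in RefSeq sequences of GRCh38.p14, as the 250 bases before each gene's start, and 56 of the 81 members were matched by symbol. The 3 sequences below are those of genes that differed with E2 in induced cells or with doxycycline in the presence of E2, and they are shown because they differ in the motifs they hold. Capitals mark a match to 1 arm of an estrogen response element (GGTCA or, on the other strand, TGACC) or to the AP-1 motif TGANTCA. Each is printed on the strand of its gene, 5′ to 3′.
ITGB5, chr3:124901419-124901668, minus strand: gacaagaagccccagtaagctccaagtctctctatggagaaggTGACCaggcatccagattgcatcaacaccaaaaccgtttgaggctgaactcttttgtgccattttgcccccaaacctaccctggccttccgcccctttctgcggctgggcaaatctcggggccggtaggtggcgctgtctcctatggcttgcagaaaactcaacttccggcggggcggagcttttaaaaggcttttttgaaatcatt
LAMA3, chr18:23872770-23873019, plus strand: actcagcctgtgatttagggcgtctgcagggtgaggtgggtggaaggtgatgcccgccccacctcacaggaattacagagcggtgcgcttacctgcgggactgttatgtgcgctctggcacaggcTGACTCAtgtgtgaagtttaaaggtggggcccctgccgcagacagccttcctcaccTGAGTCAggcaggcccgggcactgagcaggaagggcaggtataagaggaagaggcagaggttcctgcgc
ITGB8, chr7:20330650-20330899, plus strand: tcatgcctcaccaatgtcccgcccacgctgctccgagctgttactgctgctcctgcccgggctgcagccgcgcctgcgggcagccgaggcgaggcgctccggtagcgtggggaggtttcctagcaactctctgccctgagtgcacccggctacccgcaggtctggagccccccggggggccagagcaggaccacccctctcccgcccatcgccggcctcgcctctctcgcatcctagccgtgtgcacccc
The ITGB5 window held 1 such arm, which began 207 bases before the start. The LAMA3 window held 2 AP-1 matches, at 125 and 69 bases before the start, and the ITGB8 window held no match to any of these motifs. Over the 40 tested members with a promoter, GGTCA on either strand was present in 8 (20%), against 32.6% of all 35116 promoters of the same length. Each member was counted by its first promoter entry alone, and the 35116 are all entries of the reference, whether or not their genes were expressed. The AP-1 motif was present in 1 of the 40 (2.5%), against 6.57% of all promoters, and the GC box GGGCGG on either strand in 22 (55%), against 42.6%. The full element, GGTCA and TGACC with 3 bases of any kind between them, was present in 0 of the 40 and in 0.0399% of all promoters. Of the 11 members with a promoter that were called in any comparison, 1 held GGTCA (9.09%), which was ITGB5. The AP-1 motif was held by 1 of the 11 (9.09%), which was LAMA3, and the GC box by 8 (72.7%). These matches describe letters in a window and do not show binding.

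Library depth lay between 7.89 M and 33.3 M expected counts (M, 1e+06). The members together held 0.289% to 0.332% of the counts. ESR2 stood at 104 ± 10.2 CPM (counts out of 1e+06, scaled by library) in induced E2 cells and 121 ± 11.7 CPM in induced vehicle cells, against 1.61 ± 0.569 CPM in uninduced E2 and 1.30 ± 0.216 CPM in uninduced vehicle cells (SD, n = 3 each). The epithelial genes EPCAM (331 to 349 CPM), KRT8, KRT18, KRT19 and CDH1 were high in all 12 libraries. Their sum lay at 7434 to 7739 CPM in induced E2 and 6171 to 6497 CPM in induced vehicle cells, against 5282 to 5665 CPM in uninduced E2 and 5408 to 5530 CPM in uninduced vehicle cells, and its part in the results was not tested. ESR1 lay at 3.21 to 6.12 CPM, PGR at 0 to 0.155 CPM and ERBB2 at 66.2 to 86.3 CPM. The libraries numbered 1 carry an earlier file date and lane 1 in their file names, and those numbered 2 and 3 a later date and lanes 2 and 3. Between the 2 dates, 5 of 53 members were higher and 13 lower in the later libraries (edgeR adjusted p under 0.05), against 1451 and 1150 of 14541 genes. For this reason results whose call changes when the replicate number is included as a block are given with both values.

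Per transcript length, the integrins of this line were led by ITGB1, ITGB4 and ITGB5 among beta subunits and by ITGAV, ITGA6 and ITGA3 among alpha subunits. ITGB1, the beta subunit shared by most matrix-binding integrins, averaged 213 TPM (transcripts out of 1e+06, corrected for gene length) over the 12 libraries, ITGB4 averaged 172 and ITGB5 averaged 112. This order differed between groups: in induced E2 cells ITGB5 stood at 158 ± 18.1 TPM and ITGB4 at 100 ± 1.88 TPM, and in uninduced vehicle cells ITGB5 stood at 90.1 ± 2.91 TPM and ITGB4 at 213 ± 13.3 TPM (SD, n = 3 each). In uninduced vehicle cells ITGB4 overlapped ITGB1 (219 ± 6.54 TPM). ITGAV, the alpha subunit of receptors for fibronectin, vitronectin and latent TGFβ, averaged 77.5 TPM. ITGA6 and ITGA3, the alpha subunits of the main laminin receptors, averaged 72.5 and 43.4 TPM. The ranges of ITGAV and ITGA6 overlapped, and both lay above ITGA3 in every library.

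Laminin chains were present in each of the positions of the trimer. LAMA4 and LAMA5 averaged 46.4 and 43.4 TPM with overlapping ranges, LAMB2 averaged 62.5 and LAMC1 averaged 36.7. LAMA3, the alpha chain of the hemidesmosomal laminin, averaged 2.81 TPM. Among collagens the highest was COL18A1, a basement membrane collagen that carries the endostatin fragment, with 58.4 TPM, followed by COL4A5 with 29.9 and COL4A2 with 18.5. Fibrillar chains included COL5A2 (11.8 TPM), COL1A1 (8.42), COL11A2 (1.02) and COL24A1 (0.278).

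**Figure D1:**
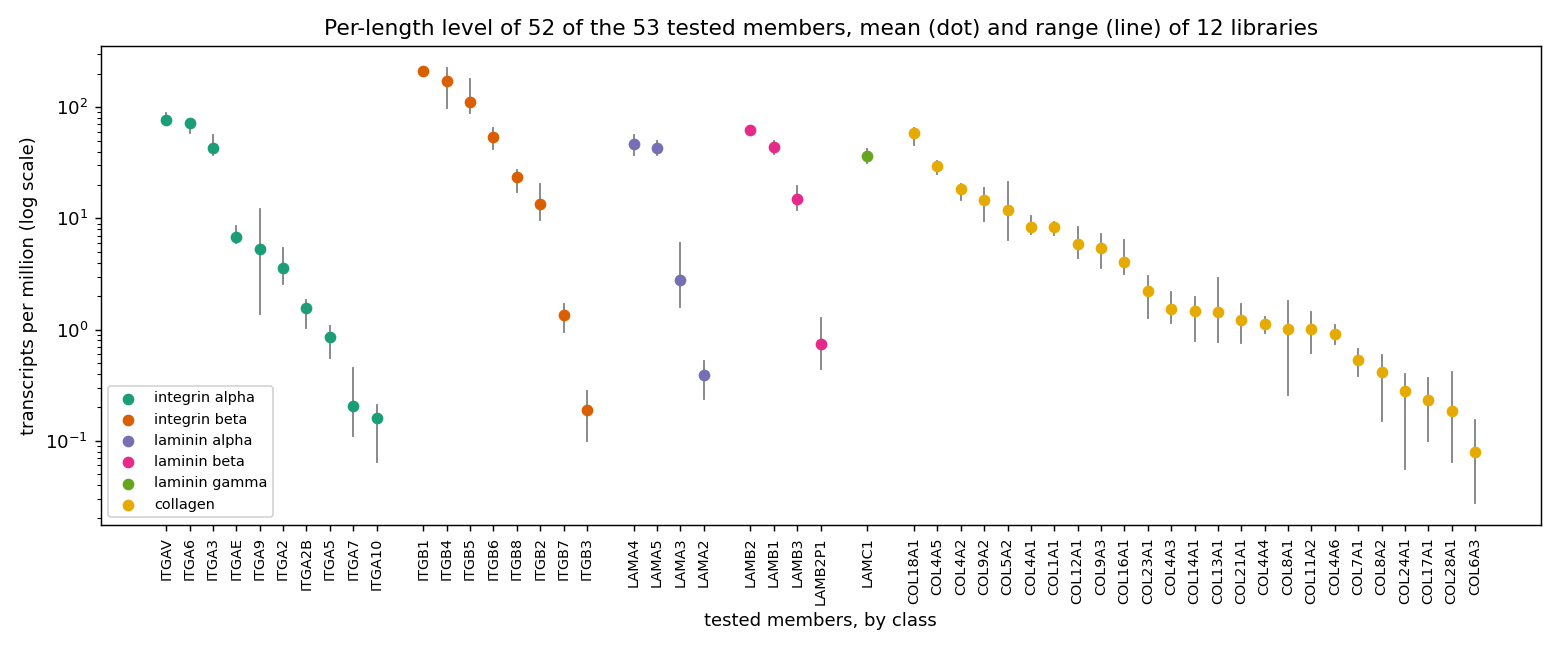
Level per transcript length of 52 of the 53 tested members, grouped by class, on a log scale (TPM, from the deposited transcript fractions). Dots are means and lines are ranges over 12 libraries; ITGB1 is highest at 213 and COL6A3 lowest at 0.0797 TPM.

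The 28 members that were not tested had at most 10.5 counts in any library, and 8 of them had 0 counts in all 12. They included LAMA1, at 0 in every library, the collagen receptor subunit ITGA1, ITGA4, and COL1A2, COL3A1, COL5A1, COL6A1 and COL6A2, chains typical of fibroblasts. COL1A2 reached no more than 0.0315 and COL3A1 no more than 0.0295 TPM. The fibroblast markers DCN and LUM were at 0 in all 12 libraries, and the summed fibroblast list lay at 470 to 525 CPM in induced E2, 453 to 472 in induced vehicle, 364 to 384 in uninduced E2 and 370 to 384 in uninduced vehicle cells. That sum consisted mostly of FBLN1, at 350 to 508 CPM.

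**Figure D2:**
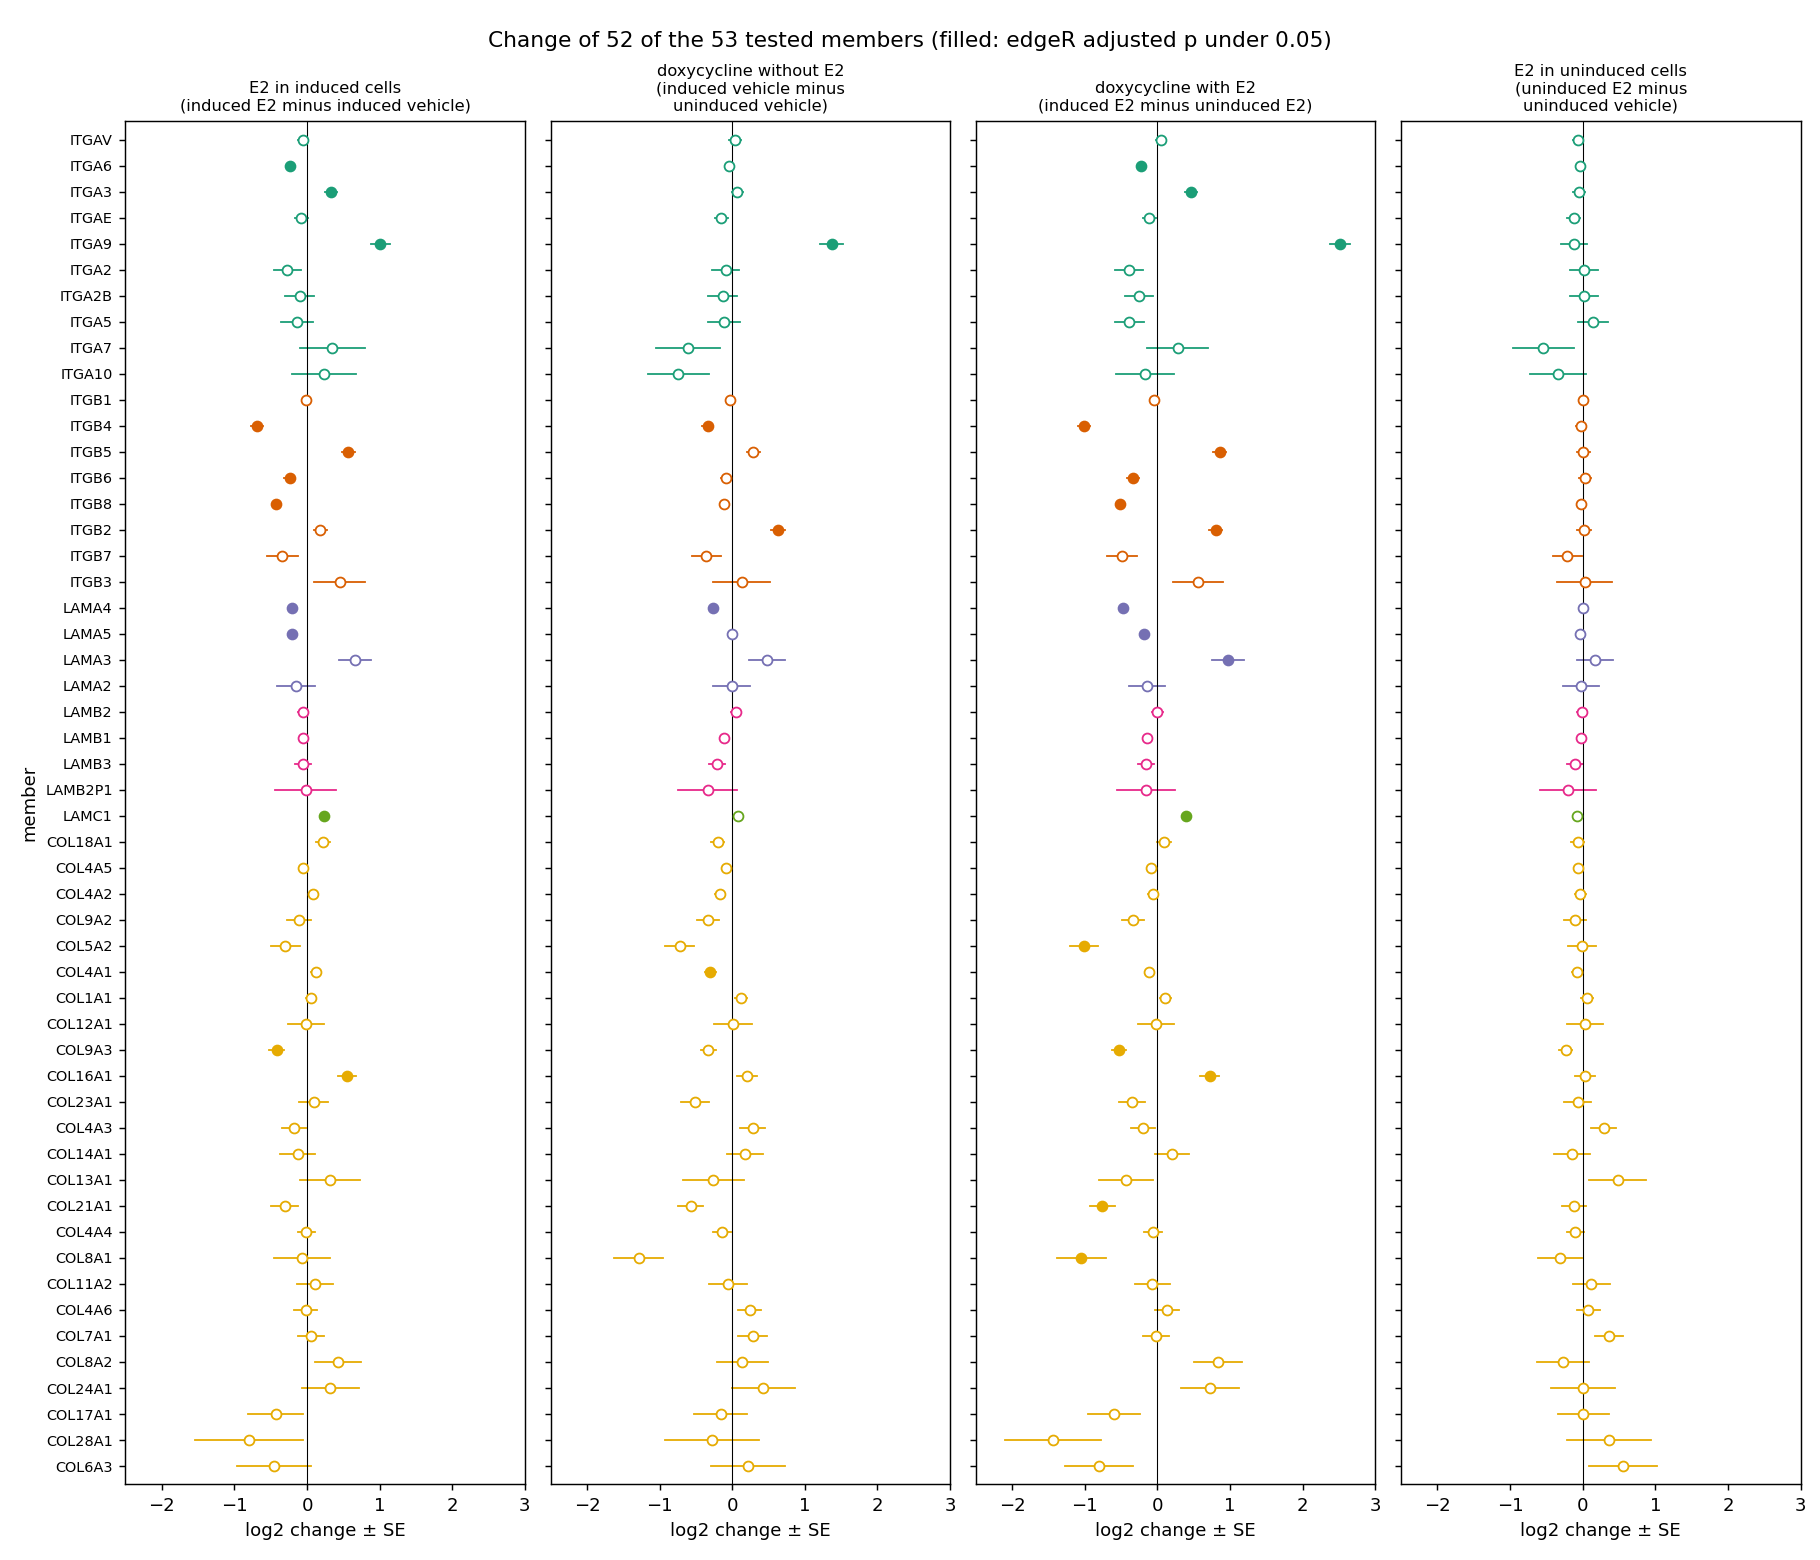
Log2 change ± SE of 52 of the 53 tested members in the 4 comparisons, with filled points at an edgeR adjusted p under 0.05. ITGA9 is highest in the first 3 panels (1.01, 1.37 and 2.51) and ITGB4 is filled below 0 in the same panels (-0.69, -0.34 and -1.01), and no point is filled in the panel for E2 in uninduced cells.

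The comparison of induced E2 with induced vehicle cells addressed the response of these genes to the ligand once the receptor is made. The alpha subunits ITGA9 and ITGA3, the beta subunit ITGB5, the gamma chain LAMC1 and the collagen COL16A1 were among those that were higher, and ITGB4, ITGB8, ITGB6, ITGA6, LAMA4, LAMA5 and COL9A3 were lower. In all, 6 of 53 members rose and 7 fell (24.5%), where 9.85% of all 14541 genes rose and 6.61% fell, 16.5% together (edgeR quasi-likelihood test, Benjamini-Hochberg adjusted p under 0.05). By family, 3 integrin genes rose and 4 fell of 18, 2 laminin genes rose and 2 fell of 10, and 1 collagen gene rose and 1 fell of 25. The median log2 change was -0.05 over the members and -0.00 over all genes.

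The same test of induced vehicle against uninduced vehicle cells showed fewer differences. In all, 3 members rose, ITGA9 and ITGB2 among them, and ITGB4, LAMA4 and COL4A1 fell, 6 of 53 (11.3%), where 2.44% of all genes rose and 1.37% fell (3.81% together). With the replicate number as a block, 5 members rose and 11 fell, against 5.54% and 4.48% of all genes. Induced E2 against uninduced E2 cells gave 8 members higher and 10 lower (34%), where 15% of all genes rose and 13% fell (28.0% together). The induced groups enter more than 1 of these comparisons, so the comparisons are not independent of each other.

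In cells without doxycycline, E2 changed 0 of 53 members by edgeR, where 0% of all genes were called, and DESeq2 and limma-voom also called 0 members. At an unadjusted p under 0.05 there was 1 member, COL9A3 (log2 -0.23, SE 0.09, edgeR adjusted p = 1), and the changes of the 53 members lay between -0.54 and 0.56 log2. The interaction, the E2 change of induced cells less the E2 change of uninduced cells, was above 0 for 4 members and below 0 for 3 (edgeR adjusted p under 0.05), where 5.66% of all genes were above and 2.81% below (8.47% together). The 4 were ITGA9, ITGB5, ITGA3 and LAMC1, and the 3 were ITGB4, ITGB8 and ITGA6. With the replicate block, 8 were above 0 and 7 below, against 8.86% and 5.88% of all genes.

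**Figure D3:**
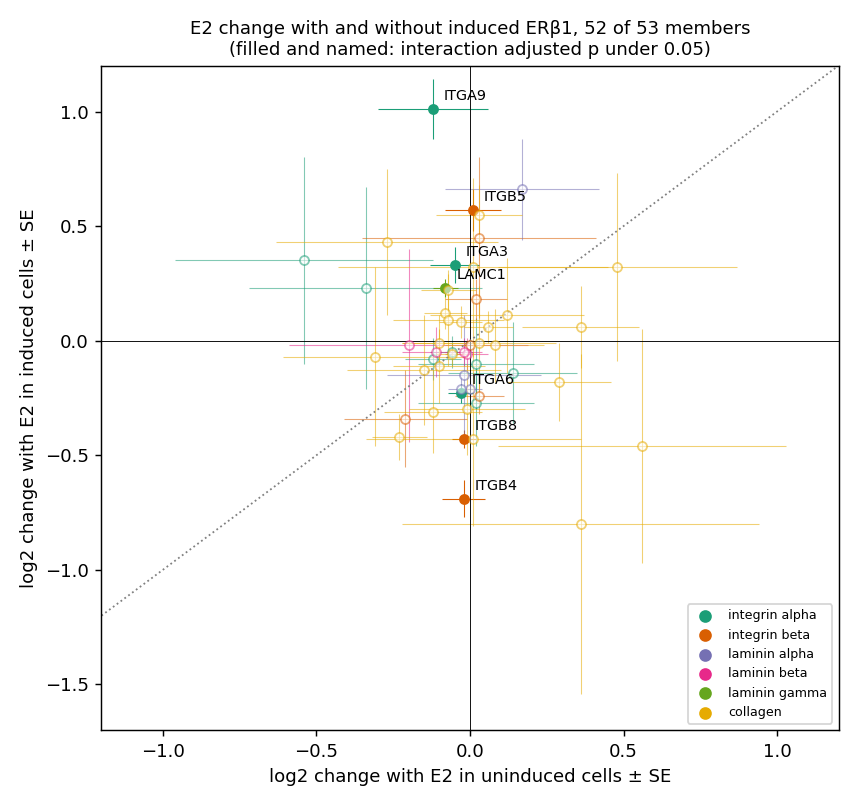
Log2 change with E2 in induced cells (vertical) against that in uninduced cells (horizontal) for 52 of the 53 members, ± SE, with a dotted line of equality. The 7 filled and named members are those with an interaction called by edgeR; they lie within -0.12 and 0.01 on the horizontal axis and from -0.69 (ITGB4) to 1.01 (ITGA9) on the vertical axis.

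ITGA9 encodes the alpha subunit that pairs with ITGB1 and binds tenascin C and osteopontin. It stood at 19.7, 23.1 and 22.2 CPM in induced E2 cells, 11.0, 10.3 and 11.2 CPM in induced vehicle cells, 2.72, 4.41 and 3.97 CPM in uninduced E2 cells and 2.50, 4.58 and 4.45 CPM in uninduced vehicle cells. The 3 levels did not overlap: the induced E2 libraries were highest, the induced vehicle libraries between, and the 6 uninduced libraries lowest, with E2 and vehicle intermixed. E2 raised it 2.02-fold in induced cells (log2 1.01, SE 0.13, edgeR adjusted p = 6.02e-05). Doxycycline raised it 2.59-fold in vehicle-treated cells (log2 1.37, SE 0.16, edgeR adjusted p = 0.000149). The rise with doxycycline in the presence of E2 was 5.69-fold (log2 2.51, SE 0.14, edgeR adjusted p = 9.13e-09). The interaction was 1.14 log2 (SE 0.22, edgeR adjusted p = 0.00442). Its partner ITGB1 was level across the groups, with 378, 368 and 376 CPM in induced E2, 384, 370 and 381 in induced vehicle, 380, 382 and 400 in uninduced E2 and 384, 377 and 400 in uninduced vehicle cells, and log2 changes between -0.05 and 0.00. Per transcript, ITGA9 amounted to 0.0504 to 0.0607 of ITGB1 in induced E2 cells, against 0.0276, 0.0269 and 0.0284 in induced vehicle cells, and to 0.00628 to 0.0117 in the 6 uninduced libraries.

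Of the beta subunits that pair with ITGAV, ITGB5 went one way and ITGB6 and ITGB8 the other. ITGB5, of the vitronectin receptor, stood at 289, 236 and 238 CPM in induced E2 cells and 199, 159 and 156 CPM in induced vehicle cells, against 141, 142 and 139 CPM in uninduced E2 and 144, 138 and 138 CPM in uninduced vehicle cells. Every induced E2 library lay above every other library, and every induced vehicle library lay above every uninduced one. ITGB5 rose 1.49-fold with E2 in induced cells (log2 0.57, SE 0.09, edgeR adjusted p = 0.000259) and 1.81-fold with doxycycline in the presence of E2 (log2 0.86, SE 0.09, edgeR adjusted p = 3.21e-06). Without E2 the doxycycline difference was 0.29 log2 (edgeR adjusted p = 0.0957, or 0.00162 when blocked by replicate number). In the induced groups replicate 1 was the highest of its group, and the interaction was 0.56 log2 (SE 0.12, edgeR adjusted p = 0.00952).

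ITGB8, of a receptor that binds latent TGFβ, stood at 74.9, 73.6 and 75.7 CPM in induced E2 cells and 101, 98.7 and 102 CPM in induced vehicle cells, against 111, 102 and 108 CPM in uninduced E2 and 111, 110 and 106 CPM in uninduced vehicle cells. The induced E2 libraries were lowest and did not overlap any other group, and the other 3 groups lay close together. E2 lowered ITGB8 in induced cells (log2 -0.43, SE 0.04, edgeR adjusted p = 2.57e-06), doxycycline with E2 did so by a log2 of -0.52 (SE 0.04, edgeR adjusted p = 1.57e-07), and the interaction was -0.41 (SE 0.06, edgeR adjusted p = 0.000244). ITGB6, of the epithelial receptor that activates TGFβ, stood at 56.2, 47.3 and 47.5 CPM in induced E2 and 63.4, 57.5 and 57.8 CPM in induced vehicle cells, against 70.8, 59.0 and 62.2 CPM in uninduced E2 and 65.3, 59.4 and 63.8 CPM in uninduced vehicle cells. It fell with E2 in induced cells (log2 -0.24, SE 0.08, edgeR adjusted p = 0.0483) and with doxycycline in the presence of E2 (log2 -0.34, SE 0.08, edgeR adjusted p = 0.00344). The first of these calls is marginal: it ended without induced vehicle replicate 1 (0.127), 2 (0.086) or 3 (0.0838) and without induced E2 replicate 2 (0.19) or 3 (0.177), and it held with the replicate block (0.000171). The interaction of ITGB6 was -0.27 log2 (edgeR adjusted p = 0.189, or 0.00462 with the block). ITGAV itself stood at 267, 250 and 249 CPM in induced E2, 292, 245 and 255 CPM in induced vehicle cells, 271, 232 and 236 CPM in uninduced E2 and 283, 242 and 247 CPM in uninduced vehicle cells. The ranges of its 4 groups overlapped, with changes of -0.06 to 0.05 log2.

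These opposite changes altered the mix of ITGB3, ITGB5, ITGB6 and ITGB8, a set that leaves out ITGB1. Among transcripts of ITGB3, ITGB5, ITGB6 and ITGB8 together, a set chosen after their values were seen, ITGB5 made up 71.2% to 72.7% in induced E2 and 56.3% to 60.8% in induced vehicle cells, against 49.6% to 53.6% in uninduced E2 and 51.2% to 52.2% in uninduced vehicle cells. ITGB6 made up 20.1% to 20.3% in induced E2 and 27.5% to 29.6% in induced vehicle cells, against 31.7% to 35.5% in uninduced E2 and 32.0% to 33.8% in uninduced vehicle cells. ITGB8 made up 7.13% to 8.55% in induced E2 and 11.7% to 14% in induced vehicle cells, against 14.6% to 15.2% and 14.9% to 15.7% in uninduced E2 and uninduced vehicle cells. For each of these 3 subunits the induced E2 and induced vehicle libraries did not overlap, and neither overlapped the uninduced ones. Shares are parts of a whole, so a higher share of ITGB5 lowers the others, and these separations are not independent results. With doxycycline without E2, ITGB6 (log2 -0.08, edgeR adjusted p = 0.725) and ITGB8 (log2 -0.11, edgeR adjusted p = 0.174) were not called themselves. These are shares of RNA within a set without ITGB1, and they do not measure assembled receptors. ITGB1 averaged 204 TPM in induced E2 and 219 TPM in uninduced vehicle cells, where ITGB5 averaged 158 and 90.1 TPM.

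**Figure D4:**
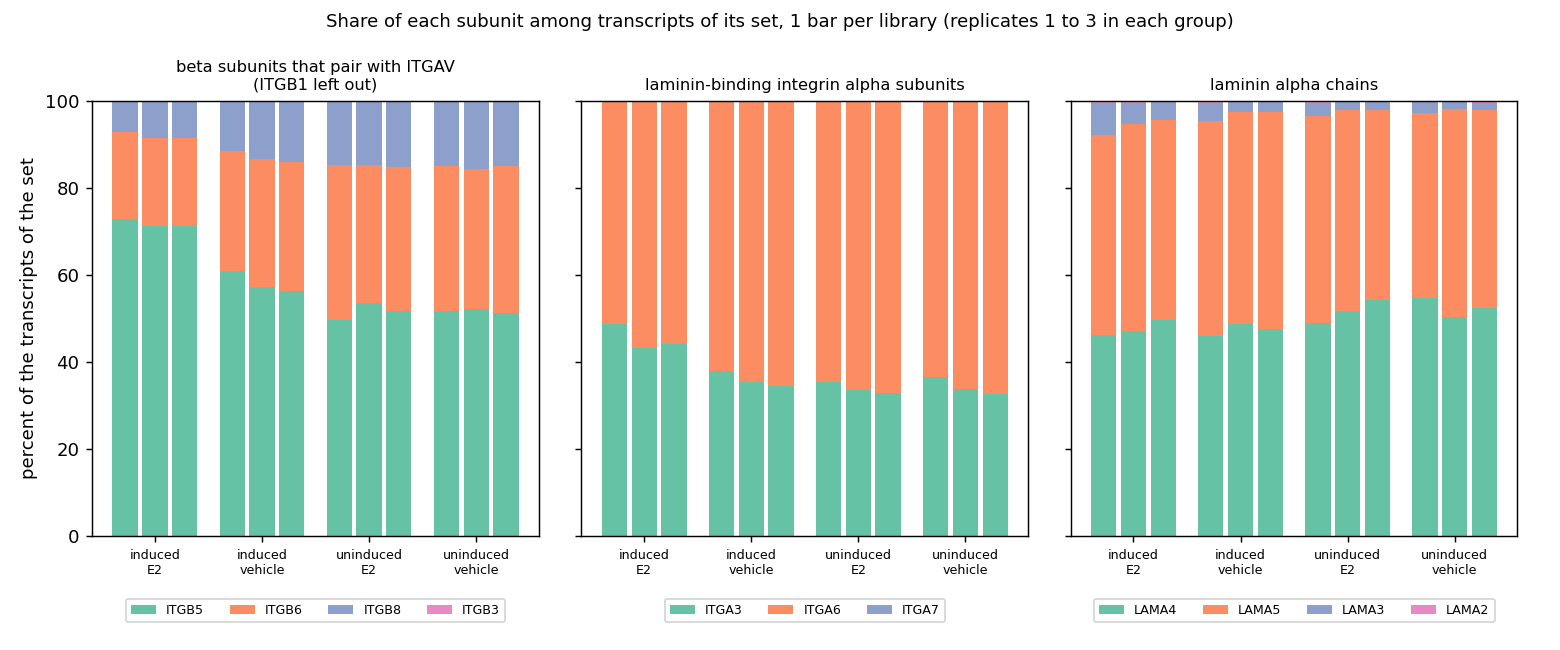
Percent of the transcripts of each set held by each subunit, with 1 stacked bar per library and 3 bars per group. The first set leaves out ITGB1. ITGB5 takes 71.2% to 72.7% of the first set in induced E2 cells, and ITGA3 takes 43.2% to 48.7% of the second set there, against 32.7% to 36.6% in uninduced vehicle cells.

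ITGB4, the laminin-binding beta subunit of the hemidesmosome, fell in each of the 3 comparisons that involve induced cells. It stood at 272, 280 and 278 CPM in induced E2 cells, 387, 478 and 476 CPM in induced vehicle cells, 521, 601 and 550 CPM in uninduced E2 cells and 528, 604 and 567 CPM in uninduced vehicle cells. The order of the groups was the reverse of that of ITGB5, with no overlap between induced E2, induced vehicle and uninduced libraries. E2 lowered it in induced cells to 0.618 of the vehicle level (log2 -0.69, SE 0.08, edgeR adjusted p = 1.28e-05). Doxycycline lowered it to 0.496 of the uninduced level with E2 (log2 -1.01, SE 0.08, edgeR adjusted p = 1.38e-07) and to 0.789 without E2 (log2 -0.34, SE 0.07, edgeR adjusted p = 0.0182). The call without E2 ended when uninduced vehicle replicate 2 (0.0986) or 3 (0.0635) was left out. The interaction was -0.67 log2 (SE 0.11, edgeR adjusted p = 0.000835).

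The alpha partner ITGA6 changed less. It stood at 166, 181 and 175 CPM in induced E2 cells, against 209, 206 and 197 CPM in induced vehicle cells, 203, 206 and 205 CPM in uninduced E2 and 206, 209 and 212 CPM in uninduced vehicle cells, so the induced E2 libraries were below all others. It fell with E2 in induced cells (log2 -0.23, SE 0.04, edgeR adjusted p = 0.000559) and with doxycycline in the presence of E2 (log2 -0.23, SE 0.04, edgeR adjusted p = 0.000268). Its interaction of -0.20 (SE 0.05, edgeR adjusted p = 0.0332) lost its call when any single library other than uninduced E2 replicate 1, induced vehicle replicate 3 or induced E2 replicate 2 was left out, with adjusted p up to 0.0951 (without induced vehicle replicate 2). The ratio of ITGB4 to ITGA6 transcripts was 1.66, 1.57 and 1.61 in induced E2 cells and 1.88, 2.36 and 2.45 in induced vehicle cells, against 2.61, 2.96 and 2.72 in uninduced E2 and 2.61, 2.92 and 2.71 in uninduced vehicle cells. The ratio was thus lowest in all 3 induced E2 libraries, and the induced vehicle libraries lay between these and the uninduced ones.

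ITGA3, the alpha subunit of the other main laminin receptor, which pairs with ITGB1, stood at 137, 120 and 119 CPM in induced E2 cells, against 111, 97.4 and 90.0 CPM in induced vehicle cells, 96.6, 90.5 and 87.0 CPM in uninduced E2 and 103, 92.5 and 89.5 CPM in uninduced vehicle cells. The induced E2 libraries were above all others. ITGA3 rose with E2 in induced cells (log2 0.33, SE 0.08, edgeR adjusted p = 0.00684) and with doxycycline in the presence of E2 (log2 0.46, SE 0.08, edgeR adjusted p = 0.000371). Its interaction of 0.38 log2 (SE 0.11, edgeR adjusted p = 0.0442) lost its call when any single library other than uninduced E2 replicate 1 or induced vehicle replicate 1 was left out, with adjusted p up to 0.119 (without induced vehicle replicate 3). ITGA3 made up 43.2% to 48.7% of laminin-binding alpha transcripts (ITGA3, ITGA6 and ITGA7) in induced E2 and 34.5% to 38.0% in induced vehicle cells, against 32.8% to 35.4% in uninduced E2 and 32.7% to 36.6% in uninduced vehicle cells.

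ITGB2, the beta subunit of leukocyte integrins, stood at 28.8, 21.9 and 22.6 CPM in induced E2 and 20.8, 21.5 and 21.7 CPM in induced vehicle cells, against 14, 14.7 and 13.1 CPM in uninduced E2 and 13.2, 14.3 and 13.5 CPM in uninduced vehicle cells. All 6 induced libraries were above all 6 uninduced ones. ITGB2 rose with doxycycline without E2 (log2 0.63, SE 0.10, edgeR adjusted p = 0.00126) and with E2 (log2 0.80, SE 0.09, edgeR adjusted p = 1.09e-05), and its E2 difference in induced cells was 0.18 log2 (SE 0.09, edgeR adjusted p = 0.21).

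The alpha partner ITGAL lies outside the symbol pattern and was singled out after its values were seen. It stood at 20.4, 22.0 and 21.2 CPM in induced E2 and 10.5, 10.2 and 10.2 CPM in induced vehicle cells, against 3.32, 3.77 and 3.92 CPM in uninduced E2 and 3.16, 3.59 and 3.59 CPM in uninduced vehicle cells. As for ITGA9, the induced E2, induced vehicle and uninduced libraries did not overlap. It rose with E2 in induced cells (log2 1.04, SE 0.07, edgeR adjusted p = 1.08e-07) and with doxycycline without E2 (log2 1.55, SE 0.09, edgeR adjusted p = 2.09e-07). ITGAM, another partner of ITGB2, lay at 0.151 to 0.874 CPM and ITGAD at 0. Of the leukocyte list of 5 genes, which includes ITGAM, PTPRC (0 to 0.302 CPM), CD3E (0 to 0.0397 CPM) and MS4A1 (0) were at or near 0, and the macrophage marker CD68 was present in all 12 libraries at 4.37 to 8.94 CPM. The sum of the list, most of it CD68, lay at 5.77 to 9.50 CPM in induced E2, 6.00 to 9.22 in induced vehicle, 4.97 to 6.23 in uninduced E2 and 5.20 to 8.12 in uninduced vehicle cells. In a bulk library, fewer cells of a type and less RNA per cell cannot be told apart.

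**Figure D5:**
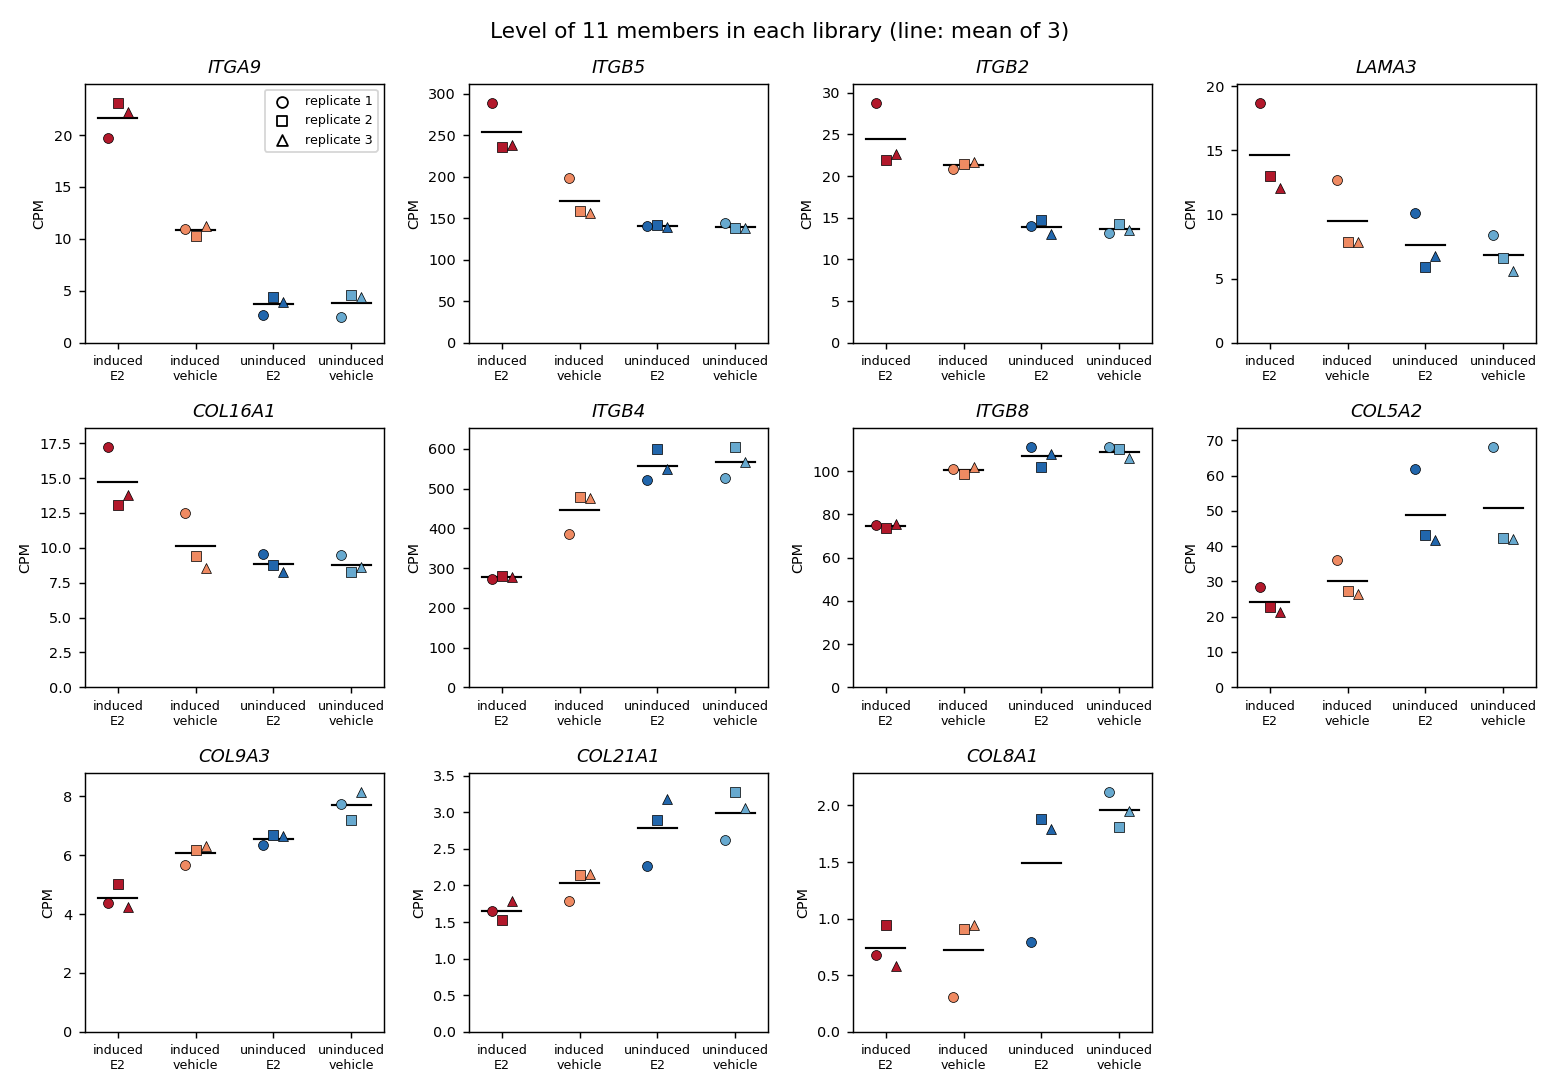
Level in CPM of 11 members called with a log2 change of at least 0.5 in size, in each library (symbols mark replicate numbers, lines the mean of 3). ITGA9, ITGB5, ITGB2, LAMA3 and COL16A1 have their highest mean in induced E2 cells (ITGA9 at 19.7 to 23.1 CPM, against 2.50 to 4.58 in uninduced vehicle cells), and ITGB4 and ITGB8 are lowest there. Without the replicate block, the E2 difference in induced cells was not called for ITGB2 (edgeR adjusted p = 0.21) or LAMA3 (0.0596).

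Among laminins, the gamma chain LAMC1 and the alpha chain LAMA3 were higher in induced E2 than in uninduced E2 cells, and the alpha chains LAMA4 and LAMA5 were lower. LAMA3 stood at 18.7, 13 and 12.1 CPM in induced E2 and 12.7, 7.83 and 7.84 CPM in induced vehicle cells, against 10.1, 5.89 and 6.80 CPM in uninduced E2 and 8.38, 6.57 and 5.60 CPM in uninduced vehicle cells. Replicate 1 was highest in each group, and the later libraries were lower than the earlier ones by a log2 of -0.61, so the groups overlapped unless libraries of the same number were compared. LAMA3 rose with doxycycline in the presence of E2 (log2 0.97, SE 0.22, edgeR adjusted p = 0.00435). The E2 difference in induced cells was 0.66 log2 (SE 0.22, edgeR adjusted p = 0.0596, or 8.17e-06 when blocked by replicate number), and the doxycycline difference without E2 was 0.48 log2 (edgeR adjusted p = 0.39, or 0.00883 with the block). The interaction was 0.49 log2 (edgeR adjusted p = 0.508, or 0.00733 with the block). Of the 40 tested members with a promoter in the table, which did not include ITGA9 or ITGB4, LAMA3 was the 1 whose window held AP-1 matches.

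LAMB3, a beta chain that joins LAMA3, showed no call without the block. It stood at 30.6, 24.4 and 23.5 CPM in induced E2 and 29.8, 25.7 and 26.2 CPM in induced vehicle cells, against 31.2, 30.1 and 26.0 CPM in uninduced E2 and 36.8, 29.8 and 29.5 CPM in uninduced vehicle cells. The E2 difference in induced cells was -0.05 log2 (SE 0.11, edgeR adjusted p = 0.82). The doxycycline difference was -0.21 log2 without E2 (edgeR adjusted p = 0.386, or 0.0186 with the block) and -0.16 with E2 (0.306, or 0.0226 with the block).

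LAMC1, the gamma chain of most laminins, stood at 163, 159 and 159 CPM in induced E2 and 145, 135 and 131 CPM in induced vehicle cells, against 127, 123 and 117 CPM in uninduced E2 and 133, 132 and 124 CPM in uninduced vehicle cells. The induced E2 libraries were above all others. LAMC1 rose with E2 in induced cells (log2 0.23, SE 0.04, edgeR adjusted p = 0.00202) and with doxycycline in the presence of E2 (log2 0.39, SE 0.04, edgeR adjusted p = 1.01e-05), with an interaction of 0.31 (SE 0.06, edgeR adjusted p = 0.00595).

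LAMA4, an alpha chain of vessel and muscle basement membranes, stood at 67.5, 65.9 and 73.4 CPM in induced E2 and 78.1, 81.2 and 79.7 CPM in induced vehicle cells, against 98.6, 94.4 and 95.3 CPM in uninduced E2 and 99.5, 94.7 and 94.5 CPM in uninduced vehicle cells. Induced E2, induced vehicle and uninduced libraries did not overlap. It fell in all 3 comparisons with induced cells, by a log2 of -0.21 with E2 (SE 0.04, edgeR adjusted p = 0.00404), -0.27 with doxycycline alone (SE 0.04, edgeR adjusted p = 0.00254) and -0.48 with doxycycline in the presence of E2 (SE 0.04, edgeR adjusted p = 1.2e-06). Its interaction was -0.21 (edgeR adjusted p = 0.0526, or 0.0145 with the block). The summed endothelial markers were also lower in induced than in uninduced cells. Their sum lay at 18.3 to 21.5 CPM in induced E2 and 19.4 to 27.0 in induced vehicle cells, ranges that overlapped. In uninduced E2 cells it lay at 35.2 to 49.8 CPM and in uninduced vehicle cells at 37.1 to 51.9 CPM. KDR (17.1 to 50.8 CPM) made up most of that sum, PECAM1 reached 1.13 CPM, CDH5 0.375 and CLDN5 0.341 CPM, and their part in the LAMA4 result was not tested.

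LAMA5, the alpha chain of most epithelial basement membranes, stood at 206, 214 and 215 CPM in induced E2 cells, against 243, 244 and 247 CPM in induced vehicle cells, 242, 241 and 236 CPM in uninduced E2 and 232, 266 and 237 CPM in uninduced vehicle cells. It was lower in the induced E2 libraries than in any other (log2 with E2 -0.21, SE 0.05, edgeR adjusted p = 0.00445; with doxycycline in the presence of E2 -0.18, SE 0.04, edgeR adjusted p = 0.00759). Without E2 the doxycycline difference was -0.00 log2. The interaction was -0.18 (edgeR adjusted p = 0.124, or 0.0287 with the block). LAMB2 stood at 159, 174 and 176 CPM in induced E2, 160, 188 and 182 CPM in induced vehicle cells, 160, 173 and 174 CPM in uninduced E2 and 155, 180 and 175 CPM in uninduced vehicle cells, with overlapping groups and log2 changes of -0.06 to 0.05.

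Among collagens, 1 of 25 rose and 4 fell with doxycycline in the presence of E2, against 4 and 4 of 18 integrin genes and 3 and 2 of 10 laminin genes, where 15% of all genes rose and 13% fell. COL16A1, a fibril-associated collagen, stood at 17.2, 13.1 and 13.8 CPM in induced E2 and 12.5, 9.42 and 8.53 CPM in induced vehicle cells, against 9.56, 8.78 and 8.27 CPM in uninduced E2 and 9.49, 8.26 and 8.62 CPM in uninduced vehicle cells. Every induced E2 library was above every other library. It rose 1.47-fold with E2 in induced cells (log2 0.55, SE 0.13, edgeR adjusted p = 0.00817; 0.052 without induced vehicle replicate 2 and 0.0503 without replicate 3). With doxycycline in the presence of E2 it rose 1.65-fold (log2 0.72, SE 0.13, edgeR adjusted p = 0.000601), and the interaction was 0.52 (edgeR adjusted p = 0.128, or 0.00399 with the block).

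COL5A2, a chain of the fibril-nucleating collagen V, stood at 28.4, 22.8 and 21.2 CPM in induced E2 and 36.2, 27.3 and 26.5 CPM in induced vehicle cells, against 61.9, 43.2 and 41.7 CPM in uninduced E2 and 68.0, 42.4 and 42.0 CPM in uninduced vehicle cells. All induced libraries were below all uninduced ones, and replicate 1 was highest in each group. It fell with doxycycline in the presence of E2 to 0.495 of the uninduced level (log2 -1.01, SE 0.19, edgeR adjusted p = 0.0011). Without E2 the doxycycline difference was -0.72 log2 (edgeR adjusted p = 0.0603, or 2.84e-08 with the block), and the E2 difference in induced cells was -0.30 (edgeR adjusted p = 0.394, or 0.000573 with the block). The interaction was -0.29 (edgeR adjusted p = 0.666, or 0.0166 with the block).

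COL9A3, a chain of the cartilage collagen IX, stood at 4.38, 5.03 and 4.23 CPM in induced E2 and 5.67, 6.19 and 6.31 CPM in induced vehicle cells, against 6.34, 6.69 and 6.64 CPM in uninduced E2 and 7.74, 7.21 and 8.15 CPM in uninduced vehicle cells. The 4 groups did not overlap and stood in this order from low to high. It fell with E2 in induced cells (log2 -0.42, SE 0.10, edgeR adjusted p = 0.0107; 0.0554 without induced vehicle replicate 2 and 0.0547 without induced E2 replicate 3) and with doxycycline in the presence of E2 (log2 -0.53, SE 0.10, edgeR adjusted p = 0.00099). The doxycycline difference without E2 was -0.33 (edgeR adjusted p = 0.084, or 0.049 with the block). The E2 difference in uninduced cells was -0.23 log2. The interaction was -0.19 (edgeR adjusted p = 0.533, or 0.454 with the block), so the E2 fall was not shown to differ between induced and uninduced cells.

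Of the scarcer collagens, COL21A1, a fibril-associated chain, stood at 1.65, 1.53 and 1.79 CPM in induced E2 and 1.79, 2.14 and 2.16 CPM in induced vehicle cells, against 2.26, 2.90 and 3.18 CPM in uninduced E2 and 2.62, 3.28 and 3.06 CPM in uninduced vehicle cells. All induced libraries were below all uninduced ones, and it fell with doxycycline in the presence of E2 (log2 -0.76, SE 0.17, edgeR adjusted p = 0.003). Without E2 its doxycycline difference was -0.57 log2 (edgeR adjusted p = 0.0809, or 0.0366 with the block). COL8A1, a short-chain collagen of vessel walls, stood at 0.682, 0.944 and 0.584 CPM in induced E2 and 0.311, 0.912 and 0.947 CPM in induced vehicle cells, against 0.792, 1.88 and 1.79 CPM in uninduced E2 and 2.12, 1.81 and 1.95 CPM in uninduced vehicle cells. Uninduced E2 replicate 1 overlapped the induced libraries. COL8A1 fell with doxycycline in the presence of E2 (log2 -1.05, SE 0.34, edgeR adjusted p = 0.032), a call that ended without uninduced E2 replicate 2 (0.149) or 3 (0.108) or induced E2 replicate 1 (0.0779) or 3 (0.124). Without E2 its doxycycline difference was -1.29 log2 (SE 0.34, edgeR adjusted p = 0.0544, or 0.00677 with the block).

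Of the basement membrane collagens, COL4A1 stood at 24.2, 25.3 and 25.6 CPM in induced E2 and 22.1, 23.4 and 23.5 CPM in induced vehicle cells, against 26.5, 28.6 and 25.7 CPM in uninduced E2 and 32.0, 28.2 and 26.6 CPM in uninduced vehicle cells. All induced vehicle libraries lay below all uninduced ones. It fell with doxycycline without E2 (log2 -0.30, SE 0.07, edgeR adjusted p = 0.0218), and this call was lost on leaving out replicate 1 (0.0523) or 2 (0.0696) of the uninduced vehicle group, or replicate 1 (0.0688), 2 (0.0594) or 3 (0.0573) of the induced vehicle group. COL18A1 stood at 150, 178 and 170 CPM in induced E2 and 123, 152 and 150 CPM in induced vehicle cells, against 143, 168 and 155 CPM in uninduced E2 and 148, 171 and 168 CPM in uninduced vehicle cells. Its groups overlapped, and its differences passed the test only with the replicate block: 0.22 log2 with E2 in induced cells (edgeR adjusted p = 0.106, or 3.39e-05 with the block) and -0.20 with doxycycline without E2 (0.298, or 0.000728). The other blocked values were 0.0298 for doxycycline with E2 (0.09 log2, 0.472 without the block) and 0.000198 for the interaction (0.29 log2, 0.209 without the block). Among the 6 collagen IV chains, COL4A5 held 46.7% to 52.8% and COL4A2 26.8% to 32.9% of the transcripts over the 12 libraries.

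Of the remaining members, ITGA2, a collagen-binding alpha subunit, stood at 12.8, 9.87 and 9.95 CPM in induced E2 and 15, 12 and 12.7 CPM in induced vehicle cells, against 18.5, 12.6 and 11.8 CPM in uninduced E2 and 19.6, 12.7 and 12 CPM in uninduced vehicle cells. The groups overlapped, and the log2 difference was -0.27 with E2 in induced cells (edgeR adjusted p = 0.409, or 0.0148 with the block) and -0.39 with doxycycline in the presence of E2 (0.142, or 0.000853). COL9A2 differed by -0.33 with doxycycline without E2 (0.322, or 0.00208) and -0.34 with E2 (0.11, or 0.000174), LAMB1 by -0.11 (0.42, or 0.0344) and -0.14 (0.0975, or 0.00209), and COL8A2 by 0.83 with E2 (0.0744, or 0.028), where the first value in each bracket is the edgeR adjusted p and the second that with the block. Without the block, the uncalled integrins lay between -0.34 and 0.45 log2 with E2 in induced cells, the uncalled laminins between -0.15 and 0.66 and the uncalled collagens between -0.80 and 0.43. The lowest of these, COL28A1 at -0.80 (SE 0.74, edgeR adjusted p = 0.569), had at most 0.466 CPM in any induced library. COL17A1, the hemidesmosomal collagen, lay at 0.270 to 0.626 CPM in induced E2 cells, against 0.503 to 0.789 CPM in induced vehicle cells, with a difference of -0.43 log2 (SE 0.38, edgeR adjusted p = 0.549). LAMB2P1, COL6A4P1 and COL6A4P2 are pseudogenes, and reads they share with related genes make their counts uncertain.

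Transcripts of proteins that link integrins to the cytoskeleton were also measured. Of 33 adhesion genes, all tested, E2 in induced cells raised 5 and lowered 5, 2 rose and 0 fell with doxycycline without E2, 5 rose and 6 fell with doxycycline in the presence of E2, and 0 changed with E2 in uninduced cells. Of all genes, 16.5%, 3.81%, 28.0% and 0% were called in these 4 comparisons. The 2 that rose with doxycycline without E2 were TNS1 (log2 0.70, SE 0.13, edgeR adjusted p = 0.00632) and NEDD9 (log2 0.57, SE 0.08, edgeR adjusted p = 0.000767). The 4 called genes with the smallest p included 2 tensins, which bind the tails of beta subunits. TNS4 stood at 57.1, 77.7 and 70.8 CPM in induced E2 cells, against 16.3, 19.8 and 18.3 CPM in induced vehicle cells, 9.74, 13.5 and 14.5 CPM in uninduced E2 and 11.1, 13.3 and 14.6 CPM in uninduced vehicle cells, so the induced E2 libraries were far above the rest. It rose 3.74-fold with E2 in induced cells (log2 1.90, SE 0.13, edgeR adjusted p = 1.14e-07). TNS1 averaged 173 ± 24.7 CPM in induced E2 and 69.2 ± 7.24 CPM in induced vehicle cells (SD, n = 3 each; log2 1.32, SE 0.12, edgeR adjusted p = 2.62e-06). The scaffold NEDD9 rose by 0.79 log2 (SE 0.08, edgeR adjusted p = 4.77e-06), and the integrin activator FERMT1 averaged 15.7 ± 0.273 CPM in induced E2 and 22.5 ± 0.197 CPM in induced vehicle cells (SD, n = 3 each; log2 -0.52, SE 0.06, edgeR adjusted p = 2.94e-05).

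Of the basement membrane and hemidesmosome partners, 14 of 16 were tested, and 1 rose and 4 fell with E2 in induced cells (16.5% of all genes called). With doxycycline 1 rose and 0 fell without E2 (3.81% of all genes), and 5 rose and 5 fell with E2 (28.0%). The heparan sulfate proteoglycan SDC1 averaged 385 ± 37.8 CPM in induced E2 and 240 ± 20.3 CPM in induced vehicle cells (SD, n = 3 each; log2 0.68, SE 0.08, edgeR adjusted p = 2.46e-05). NTN4, a netrin that binds laminin gamma chains, averaged 154 ± 2.64 CPM in induced E2 and 203 ± 3.39 CPM in induced vehicle cells (log2 -0.40, SE 0.04, edgeR adjusted p = 3.25e-06). The cytolinker EPPK1 fell by 0.32 on the log2 scale (SE 0.05, edgeR adjusted p = 0.000532). SPARC, a collagen-binding protein, rose with doxycycline without E2 (log2 1.72, SE 0.36, edgeR adjusted p = 0.0134; 0.0966 and 0.0963 without uninduced vehicle replicate 2 or 3), at levels of at most 3.11 CPM in these groups.

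Of the other integrin ligands, 11 of 16 were tested, and 2 rose and 0 fell with E2 in induced cells, a share near the 16.5% of all genes called. These were NPNT, a ligand of the integrin of ITGA8 and ITGB1 (log2 0.45, SE 0.09, edgeR adjusted p = 0.0037), and THBS1 (log2 0.41, SE 0.07, edgeR adjusted p = 0.000578); ITGA8 itself was at 0 in all 12 libraries. With doxycycline without E2, 1 rose and 0 fell (3.81% of all genes called). The 1 was again NPNT (log2 0.61, SE 0.10, edgeR adjusted p = 0.00317). With doxycycline in the presence of E2, 3 rose and 1 fell (28.0%). The 1 that fell was FN1, fibronectin, at 94.1, 146 and 147 CPM in induced E2 cells, against 228 to 231 CPM in the 3 libraries of uninduced E2 cells (log2 -0.82, SE 0.17, edgeR adjusted p = 0.00184).

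Of 27 collagen assembly enzymes, 23 were tested, and E2 in induced cells raised 3 and lowered 1, 1 rose and 1 fell with doxycycline without E2, and 5 rose and 2 fell with doxycycline in the presence of E2. Of all genes, 16.5%, 3.81% and 28.0% were called in these comparisons, so the shares of the enzymes called with E2 in induced cells and with doxycycline in the presence of E2 were near those of all genes. The prolyl hydroxylase subunit P4HA2 stood at 56.2, 60.5 and 60.0 CPM in induced E2 and 35.1, 35.3 and 33.4 CPM in induced vehicle cells, against 29.5, 28.8 and 27.3 CPM in uninduced E2 and 26.5, 28.9 and 28.1 CPM in uninduced vehicle cells. It rose with E2 in induced cells (log2 0.77, SE 0.05, edgeR adjusted p = 6.52e-08) and with doxycycline without E2 (log2 0.30, SE 0.05, edgeR adjusted p = 0.0037). The crosslinking enzyme LOXL4 stood at 4.38, 9.67 and 8.32 CPM in induced E2 and 0.544, 0.879 and 0.842 CPM in induced vehicle cells, against 0.340, 0.388 and 0.358 CPM in uninduced E2 and 0, 0.302 and 0.437 CPM in uninduced vehicle cells. It rose with E2 in induced cells (log2 3.24, SE 0.32, edgeR adjusted p = 5.56e-06). Of 5 collagen receptors other than integrins, all tested, 0 rose and 1 fell with E2 in induced cells (16.5% of all genes called). It was DDR1, a collagen-activated kinase (log2 -0.11, SE 0.04, edgeR adjusted p = 0.0431), and the call ended without induced vehicle replicate 2 (0.174) or 3 (0.126) or induced E2 replicate 2 (0.145) or 3 (0.182).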

How the data were processed

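RNA-seq libraries (TruSeq V2, per the labels) of the 12 samples were deposited as RSEM tables of 23228 genes. The authors deposited an expected count per gene and the fraction of transcripts per gene, which was multiplied by 1e+06 to give TPM (transcripts out of 1e+06). RSEM 1.1.16, DESeq 1.7.10 and hg19 are named per the submitters' processing notes; no source used here names the aligner or says whether counting used strand.

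After rounding, the expected counts went into edgeR 4.0.16 (R 4.3.3) with TMM scaling, filterByExpr (minimum count 10, minimum total 15) and a quasi-likelihood F-test. The model had 1 mean for each group over the 12 libraries and 8 residual degrees of freedom. It covered 14541 genes, over all of which Benjamini-Hochberg adjustment was made within each comparison. Calls are at an adjusted p under 0.05. CPM are counts over TMM-scaled library sizes, and SEs come from the fitted log2 change and its F statistic. A count of 3, taken as the limit that a count of 0 allows, is worth 0.0896 to 0.375 CPM in these libraries, for counting error only. The fitted biological coefficient of variation was 5.34%. The scripts were tested on simulated data. Replicate libraries differed by more than sampling noise, so none was counted as a duplicate.

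Values per library are given for members called with a log2 change of at least 0.5 in size and for the highest member of each class, apart from 1 member that is not reported here; from each gene list up to 4 called genes with the smallest p were eligible. Values per library of other called members, of LAMB3, ITGA2 and COL17A1, and the sets used for subunit shares, were added after values were seen. Members and lists were chosen with earlier results of these data known.

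Same-numbered libraries of different groups, which share file date and lane, deviated together from their group means (r 0.104 to 0.464, median 0.246, 18 pairs, over 12376 genes whose log2 CPM averaged 1 or more). Pairs of different number had r from -0.427 to 0.278 (median -0.220, 36 pairs), and 10 of them were over 0.1. Deviations from a group mean cancel within the group, so positive values in same-numbered pairs push these lower. They are therefore not a separate result, and some of these pairs also share the later file date. With all 14541 genes the range for same-numbered pairs was -0.00415 to 0.261, and 10 of the 18 were over 0.1. Whether the file date alone accounts for these correlations was not tested. The numbers were therefore taken to pair the libraries, and the fit with the number as a block (6 residual degrees of freedom) is given where it changes a call. Alternatives were DESeq2 1.42.0, limma-voom (limma 3.58.1), RLE and upper quartile scaling, no filter or a minimum count of 50, an adjusted p under 0.01, only the groups compared, file date as a covariate, the later date alone, and each library left out. Promoters came from RefSeq GRCh38.p14, another build than that of the files, and were matched by symbol.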

Additional observations from a re-analysis of the deposited data

Results flagged for a closer look

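The E2 change in induced cells differed from that in uninduced cells by the edgeR interaction test for each of the following genes. Among the members the difference was 1.14 log2 for ITGA9, 0.56 for ITGB5, 0.38 for ITGA3, 0.31 for LAMC1, -0.20 for ITGA6, -0.41 for ITGB8 and -0.67 for ITGB4. The interactions of ITGA3 and ITGA6 were near the threshold and lost their call on leaving out most single libraries, as given with their values above. Their direction did not change. Among genes of the adhesion machinery it was 1.97 for TNS4, 1.41 for TNS1, 0.66 for NEDD9 and -0.44 for FERMT1. Among matrix partners, ligands and enzymes it was 0.68 for SDC1, -0.40 for NTN4, 0.41 for THBS1, 0.74 for P4HA2 and 3.03 for LOXL4. For ITGAL it was 0.96.

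The LOXL4 value rests on low counts in uninduced cells, where 1 vehicle library is at 0, so its fitted size depends on the prior count and is no bound. Its call ended without uninduced vehicle replicate 2 (adjusted p = 0.0817) or 3 (0.195) and with limma-voom (0.117). Groups of 3 libraries were not examined for single outlying samples.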

How the results depend on the processing

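None of the 44 member calls turned direction under any alternative, and 35 of them were kept under every alternative at an adjusted p under 0.05. Of the other 9, those of members named here are given with their libraries in the report. Beyond left-out libraries, COL9A3 with E2 lost its call with DESeq2 (0.051), ITGB6 with E2 with RLE scaling (0.0516), the stricter filter (0.0505) and only the groups compared (0.0522), ITGB4 and COL4A1 with doxycycline alone with only the groups compared (0.052 and 0.0638), COL8A1 with limma-voom (0.0522), and the interactions of ITGA3 with upper quartile scaling (0.073) and of ITGA6 in the later date alone (0.0526).

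For doxycycline without E2, 3 members rose and 3 fell. With the replicate block 5 rose and 11 fell, with file date as a covariate 5 and 11. Those that fell numbered 5 with no filter, 7 in the later date alone, 1 at an adjusted p under 0.01 and 1 with only the groups compared. For the interaction, 4 members were above 0 and 3 below; with the replicate block these were 8 and 7, with file date as a covariate 8 and 7, and in the later date alone 8 and 5. Each member called without the block was also called with it in the same comparison.

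Leaving out each library in turn gave 5 to 7 higher and 5 to 7 lower with E2 in induced cells, 2 to 3 higher and 1 to 3 lower with doxycycline alone, 8 to 10 higher and 9 to 11 lower with doxycycline and E2, 3 to 6 above and 2 to 3 below 0 for the interaction, and 0 with E2 in uninduced cells. The 1 lower with doxycycline alone arose without uninduced vehicle replicate 2. The earlier date has 1 library per group, so no test within it was made. The members that did not pass the filter on low counts could not be tested at this depth.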
